A study of Mus musculus with 3 samples.

Results

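The comparison described here sets erythroblasts labelled as null for Drosha beside control erythroblasts of the same sort gate, and uses 2 of the 3 libraries of the series. Erythroblasts are red-cell precursors that still carry a nucleus, and they were sorted from the circulating blood of mouse embryos at E10.5 as cells positive for CD71, the transferrin receptor, and high for Ter119, a surface antigen of maturing red cells. The control library came from embryos of genotype Drosha fl/fl or Drosha fl/+, whose Drosha abundance is labelled as wild type. The Drosha-null library came from Drosha fl/fl;cdh5-cre+ embryos (cKO), labelled as null for Drosha, and both are described as pools of 5 embryos. Cdh5 is a gene of endothelium, so the Cre recombinase acts in endothelium and in the blood cells that descend from it, and a cell that escaped it keeps its Drosha. The remaining library, from cKO cells that are CD71-positive but low for Ter119 and are labelled with Drosha as abundant as in wild type, is called the Ter119-low library and given beside the comparison for reference. Each group had 1 library, so there is no measure of how pools vary, and every interval covers counting error alone.

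Drosha is the nuclear enzyme that, with its partner Dgcr8, cuts primary microRNA transcripts into hairpins. The microRNA is loaded into an Argonaute protein and pairs through its seed, bases 2 to 8, with sites in the 3′ UTRs of messenger RNAs, which are repressed and destabilised. Red cells are known for miR-451 and miR-144, made from the same primary transcript, and miR-451 is unusual in needing Argonaute 2 in place of Dicer after the cut by Drosha. The question the comparison addresses is how the transcriptome of a maturing erythroblast differs when it lacks the enzyme.

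The mature microRNAs whose sites are described below follow, 5′ to 3′ from RefSeq, with the seed in capitals. They are the 2 red-cell microRNAs and, of the other families searched, those named most often in the results.
miR-451a: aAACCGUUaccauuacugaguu
miR-144-3p: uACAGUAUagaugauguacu
miR-92a-3p: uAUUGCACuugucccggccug
miR-17-5p: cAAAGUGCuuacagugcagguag
miR-142a-3p: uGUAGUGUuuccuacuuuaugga
let-7a-5p: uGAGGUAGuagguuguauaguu

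The complement of the miR-451 seed, AACGGTT, is shown in capitals below in 3′ UTRs of genes called higher in the Drosha-null library, with 10 bases on either side. Where an A follows, it is capitalised too and the match is called an 8-base site, and the others are 7-base sites. The 8-base genes shown are some of the most counted among the called genes with such a site. The 7-base genes were picked after their values were seen. Other called genes with a site are not shown, some with larger differences. Coordinates are GRCm38 with the GENCODE M21 annotation.
Rac1, chr5:143506177-143506204, minus strand: aaagctttttAACGGTTAatttctgtca
Ak4, chr4:101466315-101466342, plus strand: aattaaccatAACGGTTAcccttatttt
Wwtr1, chr3:57455903-57455930, minus strand: tgaaaaggaaAACGGTTAttttaaaatg
Rnf103, chr6:71509845-71509872, plus strand: ttattcttggAACGGTTAgctttccctg
Cep55, chr19:38073970-38073997, plus strand: gctattgtagAACGGTTActagcaaagt
Ywhaz, chr15:36772136-36772163, minus strand: taagggcagaAACGGTTcacattccatt
Stk39, chr2:68211264-68211291, minus strand: tatttaaaccAACGGTTtcaggtcaatc
Ddah1, chr3:145893453-145893480, plus strand: tttccatggcAACGGTTtcttctaccag
Atxn1, chr13:45551113-45551140, minus strand: cgaaatgcagAACGGTTtctcagagtta

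Drosha RNA was lower in the Drosha-null library, at 324 control counts, 122 Drosha-null counts and 244 counts in Ter119-low cells. Counts are given in that order of libraries from here on. The log2 ratio of Drosha, Drosha-null over control, was −1.81 (95% counting interval −2.13 to −1.51). Counts over the whole gene include reads outside the deleted part, so the 122 counts do not measure intact Drosha RNA. Dgcr8, whose own messenger RNA carries hairpins that the enzyme is known to cut, had 317, 1658 and 450 counts, a log2 ratio of 1.98 (1.81 to 2.16). The library labelled null stood farthest from the control for both genes.

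The control library summed to 9497425 counts and the Drosha-null library to 9325814, and 10769 genes had at least 1 CPM, a count scaled to library size, in either. Counts were scaled by TMM, a trimmed mean of gene ratios, and a gene was called higher or lower when it differed at least 2-fold and its exact counting interval excluded 1. On that rule 1333 genes were higher (12.4%) and 839 lower (7.79%) in the Drosha-null library, so 61.4% of the calls were higher. Scaled by total counts, the calls were 2502 higher (23.0%) and 294 lower (2.7%), or 89.5% higher, and the median log2 ratio of all genes moved from −0.02 to 0.43, a shift of 0.45. The directions of gene groups below are therefore relative to the median of all genes, and for lower calls the number that also passed by total counts is given. All 1333 higher calls also passed by total counts, which is no check on them, because that scaling raises every log2 ratio by the same amount. In bulk RNA, fewer cells of a type and less RNA per cell cannot be told apart.

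**Figure D1:**
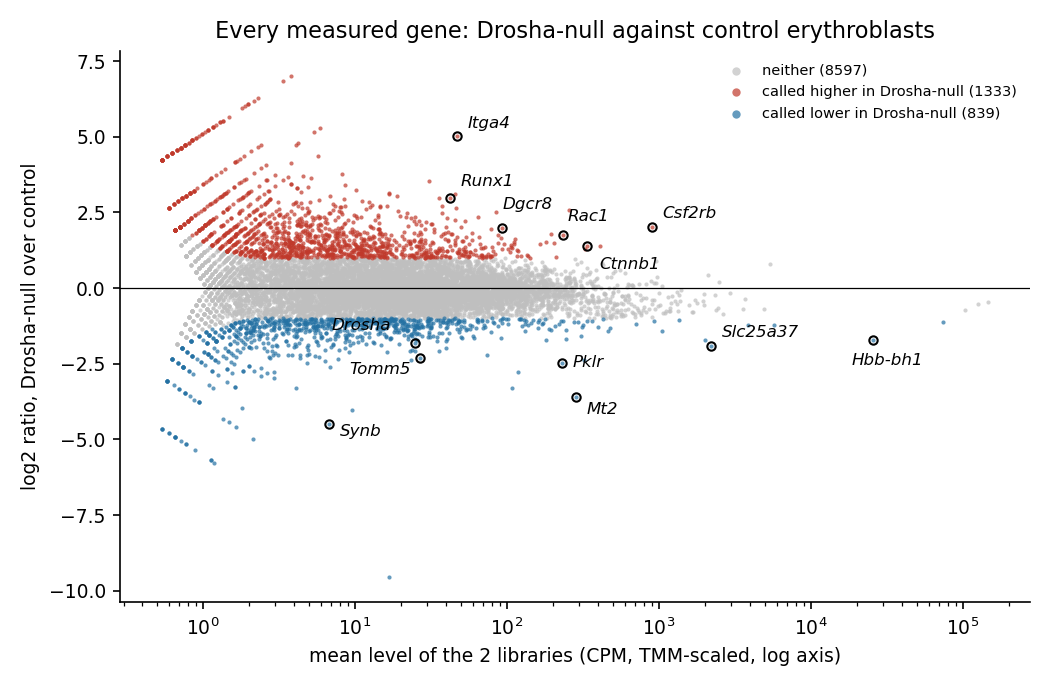
Log2 ratio, Drosha-null over control (TMM-scaled counts), against the mean level of the 2 libraries in CPM on a log axis, 1 point a gene, with the 1333 genes called higher in red, the 839 called lower in blue and the rest in grey. Itga4 stands highest of the labelled genes at 5.03, and Mt2 lies at −3.60; the diagonal rows on the left are genes with few counts in 1 library.

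Defining erythroid genes were present in both libraries: Tfrc, which encodes CD71, had 9994 control and 6862 Drosha-null counts, and the erythropoietin receptor gene Epor had 1177 and 1151. Markers of other cell types were summed in the same way. Those of definitive erythroblasts, which include globin genes, summed to 12434, 5220 and 10312 CPM, with 1 of 6 measured called higher and 2 lower. Outside the erythroid sets, blood progenitor markers were the most abundant, at 284, 232 and 273 CPM. Mllt3 (1467, 985 and 1604 counts) was the most counted of these. Of 11 progenitor markers measured 3 were called higher, Runx1, Hhex and Cd34, and Hoxa9 lower. Trophoblast markers summed to 54.3, 74.2 and 46.2 CPM, most of it from the imprinted gene Peg10 (316, 789 and 291 counts), with 1 of 4 measured called higher and 2 lower, and neural markers to 36.9, 36.4 and 34.3 CPM, with 0 of 11 higher and 3 lower. Summed over 18 endothelial markers the level was 15.2, 28.0 and 14.1 CPM in the 3 libraries, and 2 of the 10 measured were called higher, Pecam1 (3, 55 and 4 counts) and Tek (4, 25 and 1), while Robo4 was called lower. Cdh5 itself had 12, 32 and 16 counts. The 13 heart muscle markers in the table summed to 9.88, 33.1 and 7.86 CPM, and Nkx2-5 and Myl2 are not listed. Of the 6 measured 5 were called higher, Ttn (37, 181 and 42 counts), Actc1 (19, 86 and 9), Tnni3, Ryr2 and Smyd1. Tnni3, Ryr2 and Smyd1 had 0 control counts and 19, 16 and 27 Drosha-null counts. They counted as measured only through the Drosha-null library, so no lower call was possible for them. Tnnt2 (16, 20 and 0) was not called, and Myl3 (6, 0 and 0) was too low to be measured. Macrophage markers summed to 8.09, 6.55 and 3.14 CPM, megakaryocyte markers to 15.1, 20.5 and 17.2, mesenchyme markers to 12.9, 16.4 and 12.5, liver and yolk sac endoderm markers to 3.33, 1.26 and 1.57, mast cell and granulocyte markers to 2.14, 2.60 and 1.68, and lymphocyte markers to 0.238, 0.269 and 0.561. Xist, expressed from the inactive X chromosome of females, had 1818, 2993 and 3958 counts (fractional), and the Y-linked Ddx3y had 125, 283 and 148. The part of these differences in the results below was not tested.

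Genes with a miR-451 site in the 3′ UTR stood higher in the Drosha-null library than genes without one. Of 10369 measured genes with an annotated 3′ UTR, the 216 (2.08%) with a match to all of the seed had a median log2 ratio of 0.58, against −0.01 for all 10369. Among these 216 genes 69 were called higher (31.9%) and 7 lower (3.24%), against 12.6% and 7.15% of all genes with a 3′ UTR. The 69 made up 5.3% of the genes called higher, and 140 of the 216 were called neither way. Over all 216 genes the 10th and 90th percentiles were −0.39 and 2.07, and 55 genes lay below 0. The 6 genes with 2 or more sites had a lower median, 0.16, and 0 of them were called.

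The median followed the type of match. By best match it was 0.71 for the 45 genes with an 8-base site, 0.55 for the 171 with a 7-base site to bases 2 to 8, 0.36 for the 113 with a 7-base site that replaces the pairing of base 8 by the A, 0.28 for the 552 with 6 bases and −0.03 for the 9488 with none. Calls of higher genes numbered 14, 55, 29, 92 and 1112 in these classes, or 31.1%, 32.2%, 25.7%, 16.7% and 11.7%. Genes with sites had long 3′ UTRs, with medians of 2386 bases for the 8-base class and 1173 for genes with none. After the median of each gene's 3′ UTR length class was subtracted, the 5 classes stood at 0.57, 0.40, 0.21, 0.16 and −0.01, in the same order. The site genes stood above the others at each level of expression: at a mean under 5 CPM their median was 0.82 against 0.27 for all genes with a 3′ UTR at that level, from 5 to 20 CPM it was 0.77 against 0.00471, and at 20 CPM or more it was 0.26 against −0.09. At the highest level 17 of 86 site genes were called higher and 0 lower, against 5.06% and 4.71% of all genes there.

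**Figure D2:**
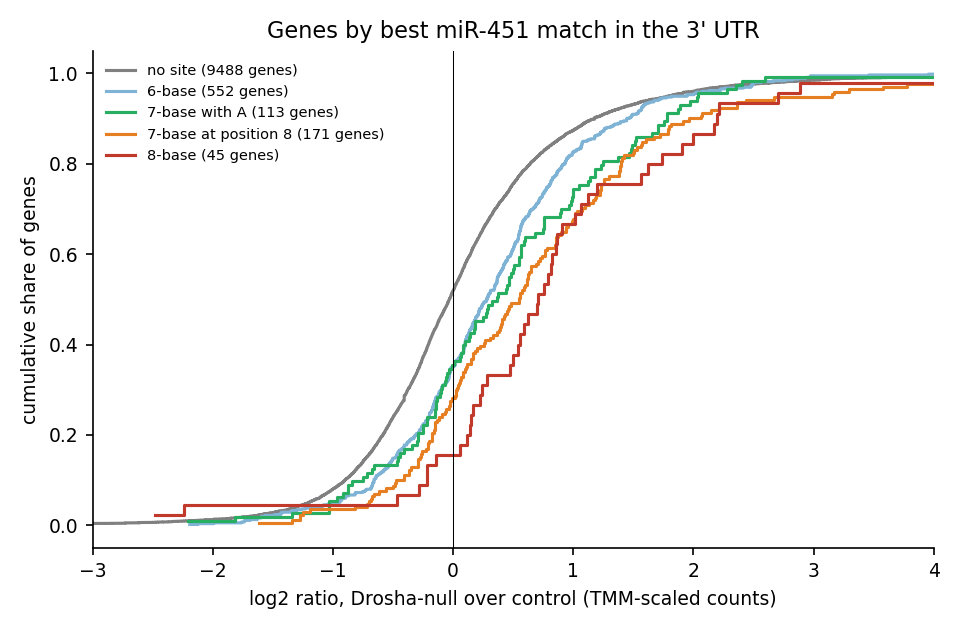
Cumulative share of genes against the log2 ratio, Drosha-null over control (TMM-scaled counts), for genes split by their best miR-451 match in the 3′ UTR, 1 line a class. The curves shift to the right from no site (9488 genes, median −0.03) to the 8-base site (45 genes, 0.71), and the horizontal axis shows −3 to 4.

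Rac1, a small GTPase that drives actin assembly, was the most abundant of the called genes with an 8-base miR-451 site. It had 911, 4043 and 1057 counts, a log2 ratio of 1.74 (1.64 to 1.85). Ywhaz, a 14-3-3 adaptor and a known miR-451 target, had 1903, 6662 and 2135 counts (1.40, 1.33 to 1.47), whereas the other measured 14-3-3 genes lay between the thresholds, with Ywhae at 0.05 and Ywhaq at −0.30. In both genes the Drosha-null library alone was high. Rac1 also holds an 8-base match to miR-142, and Ywhaz 8-base matches to miR-1 and miR-22. Stk39, a kinase that regulates ion cotransporters, had 28, 336 and 34 counts (3.15), and Ddah1, which degrades methylated arginines, had 9, 172 and 18 (3.78). These were the site carriers among the 20 highest genes of the comparison.

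Other genes with a site and a call were spread over many functions. The mitochondrial adenylate kinase gene Ak4 had 19, 168 and 36 counts (2.70), the prolyl hydroxylase gene Egln3 had 7, 89 and 15 (3.17), and Clock, a transcription factor of the circadian clock, had 54, 372 and 64 (2.37). Atxn1, which encodes ataxin-1, had 158, 973 and 248 counts (2.21), and Agps, an enzyme of ether lipid synthesis, had 576, 1830 and 657 (1.26). Each of these was higher in the Drosha-null library than in either of the others. Wwtr1, which encodes the Hippo coactivator TAZ, had 21, 106 and 27 counts (1.90), the ubiquitin ligase gene Rnf103 had 44, 235 and 81 (2.00), and Cep55, a gene of the final step of cell division, had 11, 68 and 11 (2.17). Of 15 measured genes reported elsewhere as targets of miR-451 or miR-144, 4 passed as higher and 0 as lower, around a median of 0.16: Ywhaz, the Rab GTPase gene Rab14 (395, 1142 and 428 counts), the transcription factor gene Foxo1 (61, 186 and 89) and the cytochrome oxidase assembly gene Cox10 (69, 236 and 80). Myc, on the same list, stood at −0.82.

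Sites of the other families had smaller medians, except for the endothelial miR-126, where 20 genes had a median of 0.61 (0.41 after subtraction of the 3′ UTR length class) and 5 were called higher. For a full seed match the medians were 0.30 for miR-25/92 (821 genes, 19.2% called higher and 4.63% lower), 0.27 for miR-142 (769 genes, 19.2% and 3.77%), 0.19 for miR-17/20/93 (1605 genes, 17.4% and 3.99%) and 0.16 for miR-144 (1502 genes, 15.4% and 3.99%). After subtraction of the 3′ UTR length class these became 0.20, 0.14, 0.09 and 0.06, against 0.45 for miR-451. Apart from miR-126, families known from other tissues gave a level to read these by. After the same subtraction miR-1 of muscle (1212 genes) stood at 0.02, miR-9 of neural tissue (1520) at 0.03 and miR-200 of epithelia (1737) at 0.04. The level depends on this choice, since miR-126, at 0.41 with 20 genes, lay near miR-451. No family of another tissue with as few site genes as miR-451 (216) was at hand except miR-126. On that scale let-7 (0.00706), miR-15/16 (0.00292), miR-26 (0.02), miR-103 (0.00173) and miR-22 (−0.04) lay at or below miR-1, miR-9 and miR-200. Both miR-144 (0.0554) and miR-30 (0.0625) lay just above. With 8-base sites alone the order differed. There let-7 (0.083) and miR-15/16 (0.086) lay above miR-1 (0.040), miR-9 (0.072) and miR-200 (0.073). By the same measure miR-26 stood at 0.068, miR-103 at −0.020 and miR-22 at −0.125. Motifs were searched on the transcribed strand alone, a 3′ UTR could hold sites of several families, and no family's difference was tested.

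Genes with more than 1 site stood further up for miR-142, a microRNA of blood cells, with a median of 0.52 and 25 of 65 called higher. Grlf1, a GTPase-activating protein gene with 3 miR-142 sites of which the best was 8 bases, had 193, 763 and 291 counts, and Il6st, the shared receptor subunit of the interleukin 6 family, had 247, 982 and 310. Among miR-17 family carriers were Crk (306, 978 and 358 counts), an adaptor of adhesion signalling, and Itga4. For miR-144 they included the thrombin receptor gene F2r (482, 1734 and 646 counts) and Tnrc6a (431, 1569 and 515), a silencing partner of Argonaute. On the list of 19 measured oncofetal let-7 targets 4 were higher, among them the RNA-binding protein genes Igf2bp1 (500, 1616 and 615 counts) and Lin28b (290 control and 796 Drosha-null counts), with a list median of 0.14. The carriers also included genes that fell, such as Slc25a37, which has 2 sites for the miR-15/16 family.

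Of the 19 genes reported from the 20 highest, taken by the interval bound nearest 0 among genes at 10 or more CPM in the higher library, several belong to adhesion, signalling and blood development. Itga4, the α4 integrin, had 23, 1015 and 30 counts, a log2 ratio of 5.03 (4.46 to 5.72). Pgm2, a sugar phosphomutase, had 2, 117 and 13 counts, and its log2 ratio of 5.15 has a wide interval, 3.58 to 8.53. In both genes the control and Ter119-low libraries were both low. Mov10, an RNA helicase found with Argonaute, had 29, 335 and 63 counts (3.10), and the membrane linker gene Ezr had 108, 892 and 138 (2.63). Cpd, a carboxypeptidase of the secretory pathway, had 212, 1599 and 294 (2.50), and Capg, which caps actin filaments, had 16, 207 and 29 (3.25). The remaining ones, with log2 ratios from 2.57 to 5.29, were Ttc39b, Tspan8, Psd3, Ddah1, Runx1, Stk39, Casp8, Itga8, Csf2rb2, Cdkn1a, Gca, Rcan3 and Mgat4a. In all 19 the scaled level of the Ter119-low library was below that of the Drosha-null library, and in 18 it was above the control, the exception being Rcan3.

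The 20 lowest genes by the same rule included 2 metallothionein genes, 3 globin genes and the red-cell enzyme genes Pklr and Bpgm. Mt2, a metallothionein, had 4426, 483 and 4709 counts (−3.60, −3.74 to −3.47), and Mt1 had 1730, 339 and 1521 (−2.76). Tinagl1, a matricellular protein gene, had 152, 12 and 159 (−4.02), and Fhl1, an X-linked LIM domain gene, stood at −2.07. In these 4 genes the Drosha-null library alone was low. Ahsp, the chaperone of α-globin, had 3140, 1283 and 3144 counts (−1.70, −1.79 to −1.60). Pklr, the red-cell pyruvate kinase, had 3292, 791 and 3769 (−2.46), and Slc52a3, a riboflavin transporter, had 90, 22 and 55 (−2.42). Snrnp25, a protein of the minor spliceosome, had 313, 99 and 324 (−2.06). The others, between −4.48 and −1.70, were Synb, Rpl30, Bpgm, Lmx1a, Hbq1b, Tomm5, Slc25a37, Trib3, Mrpl42, Fdx1l, Hbb-bh1 and Hba-a2. Rpl30, Hbq1b, Fdx1l and Hba-a2 have fractional counts shared with near copies and are uncertain, as is Csf2rb2 among the highest. The Ter119-low library lay above the Drosha-null library in all 20.

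**Figure D3:**
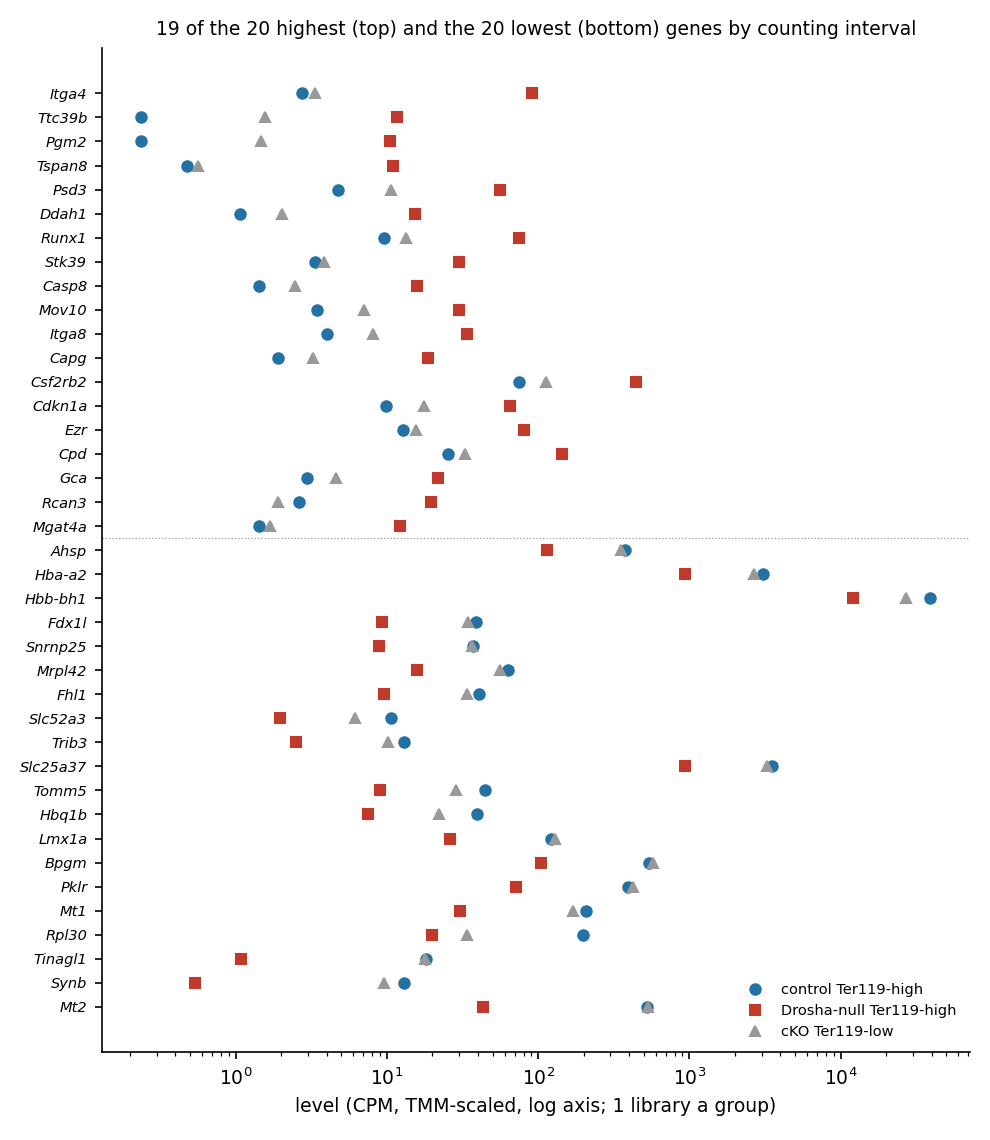
TMM-scaled level in CPM (log axis) of 19 of the 20 highest and of the 20 lowest genes in each of the 3 libraries, 1 symbol a library with no error bar, since each group had 1 library. Drosha-null values (squares) lie to the right of both other libraries for the top 19 and to their left for the bottom 20, for example Itga4 at 91.1 CPM against 2.74 in the control.

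Some genes had no counts in 1 library. Of genes with 0 counts in the control, 71 were called higher, and the most counted were Sgpp1, a phosphatase of sphingosine 1-phosphate, with 85 Drosha-null and 12 Ter119-low counts, and Pm20d2 with 75 and 20. Against a floor of 3 counts per library they were at least 21.4-fold and 18.9-fold higher. Gamt, which makes creatine, had 51 and 6 counts (at least 12.8-fold), Ptpn6, a phosphatase of blood cell signalling, had 44 and 7, and S100a10 had 44 and 3 (both at least 11.1-fold). All of these had far fewer counts in the Ter119-low than in the Drosha-null library. Of genes with 0 counts in the Drosha-null library 17 were called lower, among them Phospho1, a phosphatase, with 13, 0 and 16 counts (at least 5.75-fold lower), and Thsd7a with 19, 0 and 5 (at least 8.4-fold lower). The most counted was the predicted gene Gm9846 (283, 0 and 158 counts), whose fractional counts make it uncertain.

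Integrins, the receptors that tie cells to matrix and to other cells, had the highest median of the lists with at least 5 measured genes. Of 11 measured integrin genes (of 20 on the list) 6 rose and 0 fell, with a median log2 ratio of 1.04. Beside Itga4, Itga8 had 34, 379 and 72 counts (3.05), Itgav, the αV chain, had 39, 265 and 33 (2.34), and Itgb1, the common β1 partner, had 399, 1086 and 444 (1.04). All 4 were highest in the Drosha-null library. The platelet chains were not called, with Itgb3 at 312, 557 and 372 counts (0.43) and Itga2b, which is also a megakaryocyte marker, at 79, 126 and 96 (0.26). Tetraspanins, which organise integrins in the membrane, had 6 of 19 higher and 1 lower, Tspan32 (292, 131 and 211 counts, also by total counts), with a median of 0.55. The most counted of the 6 was Cd81, with 150, 713 and 173 counts (1.84), and Tspan8 had 4, 122 and 5 (4.36). Tspan33, an erythroid member, stood at −0.72. Among 9 other adhesion genes 3 were higher, the endothelial marker Pecam1, the progenitor marker Cd34 (8, 26 and 7 counts) and the galectin gene Lgals8 (49, 160 and 65). The list median was 0.75. Pecam1, measured only through the Drosha-null library, is itself part of the sum of the endothelial markers, which went from 15.2 to 28.0 CPM. That sum is therefore no separate measure.

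Genes of the actin cytoskeleton had more higher than lower calls, as did all measured genes (12.4% higher and 7.79% lower). Among 42 genes of actin and its assembly 8 were higher and 2 lower, 0 of the 2 by total counts, with a median of 0.22. Vcl, vinculin, had 100, 583 and 102 counts (2.13), Cfl2, a cofilin best known from muscle, had 112, 748 and 133 (2.33), and Wasl, an activator of Arp2/3, had 174, 681 and 191 (1.56). The Drosha-null library stood apart in these 3. Actb and Cfl1, far more abundant, stood at 0.16 (fractional) and −0.26. Of 21 myosins 3 were higher (14.3%, near the share of all genes) and 0 lower, with a median of 0.62. Myo1c had 146, 633 and 164 counts and Myo6 had 27, 145 and 37. Muscle markers were higher in the Drosha-null library too, from 9.88 to 33.1 CPM summed, and their part in the actin and myosin values was not tested. Small GTPases and their regulators went both ways. Rhob, of endosomes, had 49, 251 and 68 counts (1.94), and Dock8, an exchange factor of blood cells, had 3, 35 and 7 (2.94). Dock3, by contrast, had 27, 1 and 6 counts (−4.60), and the abundant Rhoa and Cdc42 stood at −0.05 and −0.02. Rac1 rose while its blood-cell paralog Rac2 (46, 18 and 37, fractional) was called lower.

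Cytokine receptors and the JAK-STAT pathway, which carry erythropoietin and interleukin signals, had 14 of 40 measured genes higher and 3 lower, 1 of the 3 also by total counts, with a median of 0.58. Csf2rb, the shared β chain of the interleukin 3, interleukin 5 and GM-CSF receptors, was the most abundant of them, with 2966, 16030 and 3901 counts (2.03), and its neighbour Csf2rb2 had 624, 4921 and 997 (2.57). The copies resemble each other and have fractional counts, so how reads were divided between them is uncertain. Il2rg, the common γ chain, had 12, 94 and 22 counts (2.51), the interferon γ receptor gene Ifngr2 had 16, 110 and 25 (2.34), and Lifr had 13, 78 and 33 (2.13). The kinase genes Jak1 (294, 884 and 456 counts) and Tyk2 (18, 93 and 30) were called higher, while Jak2, which serves the erythropoietin receptor, stood at −0.65 and Epor at −0.44. The 3 genes that fell, Cish (121, 74 and 88 counts), Socs2 (56, 33 and 70) and Socs3 (34, 14 and 25), encode inhibitors that the pathway induces. Socs5 (23, 65 and 6) was higher.

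The TGF-β and BMP pathway had 8 of 24 measured genes higher and 0 lower, with a median of 0.70. At the receptor level, Tgfbr1 had 233, 624 and 233 counts (1.01), Bmpr2 had 143, 505 and 155 (1.41), and Acvr2a had 44, 187 and 92 (1.67). The coreceptor gene Tgfbr3 had 98, 382 and 115 (1.55). Of the signal carriers Smad1 (6, 25 and 10 counts) passed and Smad5 (0.83), Smad2 (0.55) and Smad4 (0.16) did not. Smurf2 (250, 818 and 273 counts) and Smurf1 (17, 52 and 20), ubiquitin ligases that limit the pathway, were both higher, as was the target gene Id2 (4, 21 and 11).

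In the Wnt pathway 6 of 35 genes were higher (17.1%) and 2 lower (5.71%), 0 of the 2 by total counts, around a median of 0.10. Of all measured genes 12.4% were higher and 7.79% lower, so the list lay not far from the background. Ctnnb1, β-catenin, the effector of the pathway and a partner of cadherins, had 1560, 5415 and 1624 counts (1.39, 1.31 to 1.47), and Apc, a scaffold of its destruction, had 327, 1076 and 455 (1.31). The coreceptor gene Lrp5 had 7, 100 and 14 (3.34), whereas its paralog Lrp6 stood at 0.48. In the Hippo pathway 4 of 13 were higher and 1 lower (also by total counts), the kinase genes Lats1 (734, 2060 and 718 counts) and Lats2 (12, 53 and 15) and the coactivator genes Yap1 (24, 79 and 44) and Wwtr1, against Tead3 (27, 10 and 43). Kinases and regulators of the MAP kinase cascades had 6 of 51 higher and 2 lower (1 by total counts), near the background for higher calls, with Hras1 lower (265, 120 and 287 counts). The PI3K, AKT, mTOR and FOXO list had 3 of 26 higher (11.5%, near the background) and 1 lower. Foxo1 and Pik3cd (2, 15 and 2) were among the higher, against the translation inhibitor gene Eif4ebp1 (202, 90 and 146), which was lower by total counts too. Akt2 stood at −0.82.

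Lysosomal hydrolases and membrane proteins, which degrade material taken up or recycled by the cell, had 6 of 30 higher and 1 lower, Naglu (21, 4 and 1 counts), also by total counts, with a median of 0.55. The hydrolase gene Hexa (4, 55 and 14 counts, 3.22) and the membrane protein gene Scarb2 (7, 51 and 22) were among the 6, at low counts. The abundant cathepsin genes Ctsb and Ctsd stood at −0.33 and −0.02, and 0 of 18 measured subunits of the vacuolar proton pump were called either way. Genes of vesicle traffic were mixed. Rab GTPases had 8 of 38 higher (21.1%) and 2 lower (0 by total counts), with Rab2a at 200, 749 and 213 counts (1.49) and Rab5b at 181, 531 and 292. Clathrin adaptors had 3 of 22 higher (13.6%, near the share of all genes) and 0 lower, with Ap1g1 at 535, 1611 and 589. The SNARE genes split, with Vamp3 higher (519, 1717 and 620 counts) and Vamp8 lower (593, 310 and 563) but not by total counts. Autophagy genes had 3 of 37 higher and 1 lower (also by total counts), with Ulk2, an initiating kinase, at 58, 201 and 60 counts and the mitophagy receptor gene Bnip3l at −0.00291.

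Chaperones of the endoplasmic reticulum had a median of 0.50, although only 2 of 25 were called higher and 0 lower. Hspa5, the main chaperone of this compartment, had 2175, 4579 and 2263 counts (0.67), and Hsp90b1 had 3492, 6547 and 3473 (0.50). Sel1l, of the degradation pathway, passed (304, 843 and 337 counts). Cholesterol synthesis genes had a median of 0.50 with 3 of 25 higher (12%, near the 12.4% of all genes) and 1 lower (also by total counts). Sqle, an epoxidase of the pathway that was below the threshold, stood at 0.50. Fatty acid and phospholipid genes had 4 of 28 higher (14.3%, also near that share) and 0 lower (median 0.43). The acyl-CoA synthetase gene Acsl4 was at 51, 226 and 117 counts and the phosphatidate phosphatase gene Lpin1 at 11, 114 and 17 (2.91). Fasn, the fatty acid synthase, was at 0.51.

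Genes for mitochondrial protein import, which brings nuclear-encoded proteins into the organelle, had the lowest median of the lists with at least 5 measured genes, −0.93, with 9 of 20 called lower, 2 of them also by total counts, and 0 higher. Tomm5, a small subunit of the outer membrane pore, had 375, 101 and 254 counts (−2.29), and Timm9, a carrier chaperone of the space between the membranes, had 143, 58 and 113 (−1.70). Timm23, the channel of the inner membrane, had 1380, 895 and 1374 counts (−1.03). The larger receptor gene Tomm70a stood at −0.09. After the median of each gene length class was subtracted the list stood at −0.58. For the nuclear-encoded subunits of the respiratory chain the same subtraction moved the medians toward that of all genes. Complex I went from −0.42 to 0.04 with 3 of 36 lower (0 by total counts), complex IV from −0.65 to −0.06 with 2 of 11 lower (1 by total counts), and ATP synthase from −0.49 to 0.00117 with 1 of 16 lower (0 by total counts). Complex III went from −0.26 to −0.11, with 1 of 9 lower, Uqcr10 (431, 241 and 341 counts), which did not pass by total counts. The complex IV genes called lower were Cox7a2l (477, 254 and 452 counts, −1.32) and Cox7b (−1.46, fractional), and the catalytic subunit genes of ATP synthase, Atp5b and Atp5a1, stood at 0.21 and 0.13. Tricarboxylic acid cycle genes had 1 of 18 higher, Idh2 (55, 195 and 66 counts), and 0 lower.

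Among metabolic lists, serine, glycine and one-carbon metabolism had 5 of 17 lower (1 by total counts) and 0 higher, with a median of −0.52 and of −0.56 after the length subtraction. The list also holds Asns and Pycr1, of asparagine and proline synthesis, and both are among the 5. Asns, asparagine synthetase, had 1606, 801 and 1482 counts (−1.41), Shmt2, the mitochondrial serine hydroxymethyltransferase, had 1849, 1129 and 1571 (−1.12), and Pycr1, of proline synthesis, had 76, 21 and 72 (−2.24). Phgdh and Shmt1 also fell by the TMM rule, whereas Psat1, the next enzyme after Phgdh, stood at 0.20. Cytosolic aminoacyl-tRNA synthetases, which charge tRNAs, had a median of −0.46 (−0.48 after the subtraction) with 1 of 20 lower, Yars (468, 284 and 441 counts), and Nars, just short of the threshold, at 3893, 2615 and 4153 (−0.98). Polyamine genes had a median of −0.71 and 1 of 10 lower, Azin1 (1918, 1023 and 2147 counts), an activator of the pathway. Neither Yars nor Azin1 passed by total counts. Pentose phosphate and glutathione genes had 2 of 24 lower, 0 by total counts: Glrx5, an iron-sulfur cluster protein, had 4152, 2570 and 4017 counts (−1.10).

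**Figure D4:**
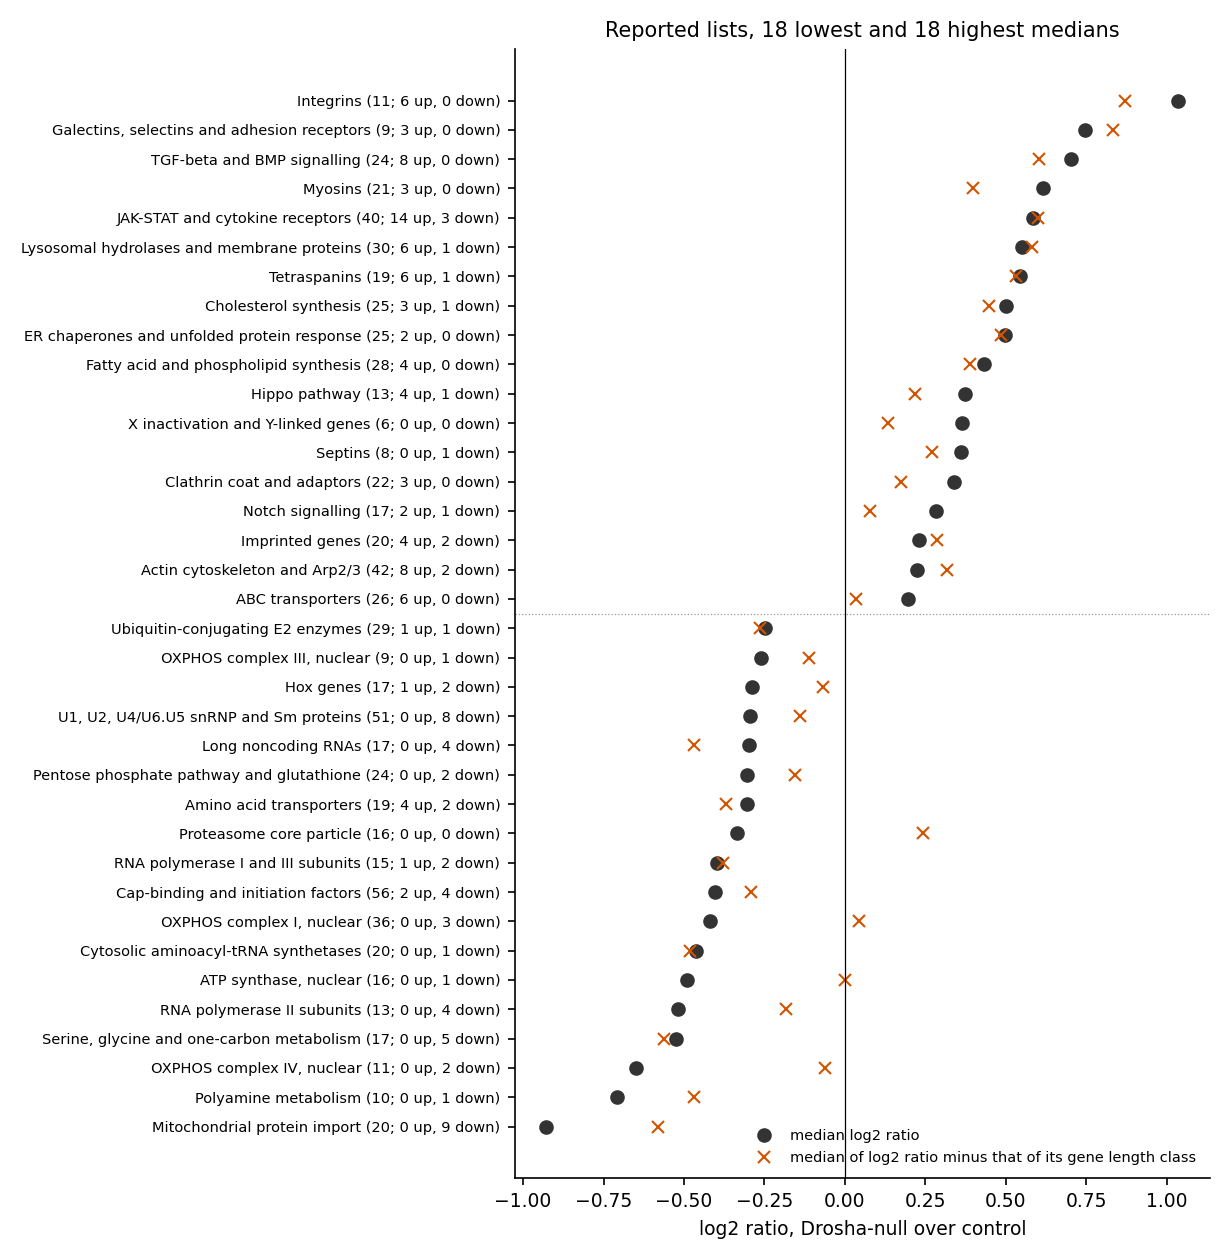
Median log2 ratio, Drosha-null over control, of the measured genes of the lists with the 18 lowest and 18 highest medians among those reported (dots), and the same after the median of each gene's length class was subtracted (crosses), with the number of measured genes and of genes called higher (up) and lower (down) beside each name. The integrin list stands highest at 1.04 and mitochondrial protein import lowest at −0.93, while the proteasome core crosses 0, from −0.33 to 0.24.

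Much of the machinery of gene expression and division was called in neither direction on the TMM scale. In the lists of nucleoporins (25 genes), importins and exportins (22), cohesin and condensin (21), DNA damage signalling and repair (46), dynein and dynactin (22) and the proteasome core (16), 0 genes were called by TMM. By total counts 3 genes of DNA damage signalling and repair were called higher and 1 each of the importins and exportins, dynein and dynactin and the proteasome core. In the spliceosomal snRNP list 8 of 51 were lower (3 by total counts) and 0 higher, among them Snrpg (698, 389 and 497 counts) and Snrnp25, while Prpf8 and Sf3b1 stood at 0.12 and 0.09. For RNA polymerase II 4 of 13 were lower, 0 by total counts, with Polr2e at 304, 165 and 374, whereas Polr2a, the catalytic subunit, stood at 0.36. Subtracting the median of each gene length class moved the snRNP list from −0.29 to −0.14 and the RNA polymerase II list from −0.52 to −0.18. Translation initiation factors had 4 of 56 lower (1 by total counts) and 2 higher, and Eif5a, a factor of elongation as well, had 8271, 4822 and 7927 counts (−1.19). The list of deadenylation, decapping and exosome factors had 4 of 49 lower (2 by total counts) and 1 higher, Cnot6l.

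Lists of chromatin regulators lay on both sides of the 12.4% of all genes called higher. Polycomb genes had 4 of 26 higher (15.4%) and 0 lower, with Pcgf3 at 162, 660 and 229 counts (1.62) and Ezh2, the main methyltransferase, at −0.08. Among remodelers 4 of 40 were higher (10%) and 0 lower, with Smarca2, an ATPase of the SWI/SNF complex, at 9, 68 and 19 counts (2.44) and Chd4 at −0.15. The lists of enzymes that modify histones had smaller shares. Of 49 methyltransferases and demethylases 2 were higher (4.08%), Setd7 (195, 676 and 204 counts) and Prmt2 (6, 46 and 12), and 0 lower. Of 41 acetyltransferases and deacetylases 1 was higher (2.44%), Kat2b (86, 352 and 105 counts), and 1 lower, Ing4 (62, 38 and 44), which did not pass by total counts. In the DNA methylation list of 13 genes Tet1 (41, 146 and 43 counts), Tet2 (172, 473 and 153) and Dnmt3b (59, 165 and 91) were higher (23.1%) and Mbd3 lower (330, 153 and 327, also by total counts), with Dnmt1 at −0.18. The 297 measured genes of the Zfp zinc finger family had 19 higher and 18 lower, 3 of the 18 by total counts, around −0.08, so that 6.4% were higher and 6.06% lower, below the shares of all genes. Hox genes were at low counts, with Hoxb3, the most counted, at 36, 25 and 23.

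Membrane transporters had calls in both directions. Solute carriers outside the mitochondrial family had 29 of 139 higher and 15 lower (8 by total counts). Slc14a1, the urea transporter of red cells, had 217, 1024 and 254 counts (1.83), Slc22a23 had 371, 1541 and 456 (1.65), and the thiamine transporter gene Slc19a2 had 37, 266 and 57 (2.42). Slc4a1, the red-cell anion exchanger, had 45014, 25880 and 44906 counts (−1.21) and did not pass by total counts. The mitochondrial carriers had 6 of 33 higher and 3 lower (2 by total counts): Slc25a24, which exchanges ATP and phosphate, had 28, 253 and 35 (2.75), while Slc25a37, the iron importer, had 29361, 10429 and 28821 (−1.90). Of 26 ABC transporters 6 were higher and 0 lower, with Abcc4, an exporter of cyclic nucleotides, at 19, 150 and 30 (2.54), whereas Abcb10, an erythroid mitochondrial member, stood at −0.65. Of 40 channels and pumps 8 were higher (20%) and 4 lower (2 by total counts), with a median of 0.10. Stim1, a calcium sensor of the endoplasmic reticulum, had 27, 91 and 44 counts (1.33), and the calcium pump gene Atp2a3 had 10, 87 and 9 (2.65). Aqp3, a glycerol and water channel gene, was lower (515, 213 and 484 counts, −1.68). Of 20 imprinted genes 4 were higher, with Igf2r at 428, 1170 and 522, and 2 lower (1 by total counts), with H19 at 12827, 6311 and 10497.

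Longer genes had higher log2 ratios. In the shortest of 10 classes of the measured genes, from 205 to 1161 bases as deposited, the median was −0.59 with 52 genes called higher (4.82%) and 253 lower (23.5%). In the longest class it was 0.29 with 187 higher (17.4%) and 33 lower (3.06%). Rn45s, the long precursor of ribosomal RNA, had 32942, 76476 and 29441 counts (0.81), whereas Rn28s1 and Rn18s, the mature forms contained in it, stood at −0.47 and −0.53. These 3 share reads and have fractional counts, which leaves each value uncertain. Calls were also more frequent among weakly expressed genes, with 27.2% higher in the lowest of 10 classes by mean level and 2.6% in the highest. By chromosome the median lay between −0.10 and 0.15 for the autosomes and at 0.20 for the X chromosome, where 61 of 373 genes were higher and 17 lower, beside the difference in Xist and Ddx3y given above.

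**Figure D5:**
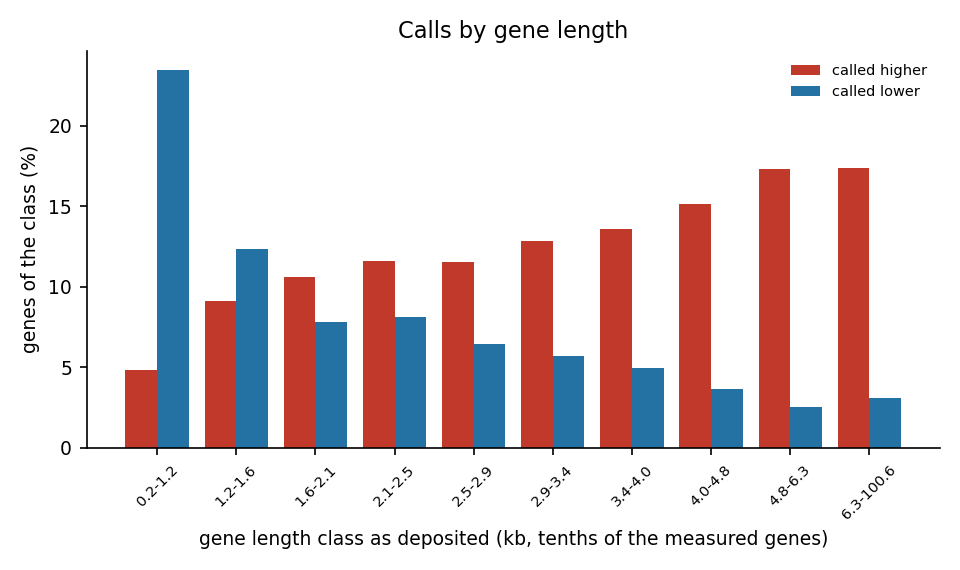
Share of genes called higher (red) and lower (blue) in the Drosha-null library, in percent, for 10 classes of gene length in kb, each with an equal share of the measured genes. Lower calls drop from 23.5% in the shortest class to 3.06% in the longest, and higher calls run from 4.82% to 17.4%.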

How the data were processed

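Total RNA of sorted erythroblasts was sequenced, with 1 pooled library for each of 3 groups taken from the labels. The tables deposited by the authors hold, per the file headers, expected counts (estimated read counts per gene, fractional for some genes) and FPKM values. They also hold the authors' log2 ratio of the FPKM values, a p-value from a comparison of 1 library with 1 library, and an FDR score that exceeds 1 for some genes; the log2 ratio, p-value and FDR were not used. No source used here names the aligner, the counting program, the annotation or the build.

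The table of the comparison lists 14640 genes, and with the table of the Ter119-low library 15058 were joined by gene ID. Expected counts were rounded to whole numbers and scaled by TMM (edgeR 4.0.16, R 4.3.3), with factors of 0.885, 1.19 and 0.946 for control, Drosha-null and Ter119-low. For each log2 ratio 0.5 was added to every count before scaling, and an exact 95% Clopper-Pearson interval was given; a gene was measured if it reached 1 CPM in 1 or both libraries. The call rule was a ratio of at least 2 (or at most 0.5) with an interval excluding 1, and 3 counts served as the floor. The reads carry no molecular identifiers and need not be independent molecules. No test across conditions was fitted, and no replicate spread can be had.

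Gene lists (86) and marker lists were matched by symbol, with 3098 of 3110 list entries found. Seed matches were searched in the longest 3′ UTR of each gene (GENCODE M21, GRCm38), and mature microRNAs came from the RefSeq table. The 10 length classes split the measured genes evenly by deposited gene length. The named genes are the 20 highest and 20 lowest by the interval bound nearest 0 at 10 or more CPM without predicted genes, the most abundant genes, the most counted genes at 0 in the other library, and, per list, abundant, extreme and called members; per microRNA family they are called genes with an 8-base site. Genes shown for 7-base miR-451 sites, and those with 0 counts that are described, were picked from these after their values were seen. Some of these genes and 1 gene list are not reported here. The members and lists were chosen with earlier results of these data known. The procedure was tested on simulated data. Alternatives were scaling by total counts, by DESeq2 1.42.0 size factors and without ribosomal RNA and globin genes, other filters, 2 counts added and the deposited FPKM. The scripts ran in Python 3.11.15 with pandas 2.3.3, NumPy 2.4.6, SciPy 1.17.1 and, for figures, matplotlib 3.10.9.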

Additional observations from a re-analysis of the deposited data

How the results depend on the processing

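With 1 library per side, the intervals reflect counting alone, and the depth limits genes of few counts most. No paired analysis was possible because each group had a single library, and leaving out a replicate was not possible for the same reason. Scaling by total counts gave 2502 genes higher and 294 lower, a median of 0.43 over all genes and 1.02 over genes with a miR-451 site. Without ribosomal RNA and globin genes in the totals these medians were 0.18 and 0.76, with 1899 genes higher and 621 lower. A filter of 10 CPM left 510 genes higher, 398 lower and a miR-451 median of 0.46, by its construction with fewer genes measured. The deposited FPKM with the fold rule alone gave 2567 higher, 391 lower, and medians of 0.42 and 1.03. Otherwise the cause was not tested. With DESeq2 size factors, no filter or 2 counts added, the numbers of higher genes ran from 1278 to 1460 and those of lower genes from 796 to 929, and the miR-451 median from 0.55 to 0.60. Relative to the median of all genes, 1 of 84 list medians changed sign over 3 other scalings, that of histone methyltransferases and demethylases, from −0.0101 to 0.00101 by total counts. Subtracting the gene length class changed the sign of 15: OXPHOS complex I to 0.043, ATP synthase to 0.00117, the vacuolar proton pump to 0.0709, the proteasome core to 0.24, its regulatory particle to 0.0127, purine and pyrimidine synthesis to 0.00577, antioxidant enzymes to 0.0381, TRIM proteins to −0.17, Mediator to 0.0409, importins and exportins to −0.14, DNA damage signalling to −0.0336, kinesins to −0.0736, cohesin and condensin to −0.17, tubulins to 0.14 and the PI3K list to −0.017.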
